A study of Arabidopsis thaliana with 8 samples.

Results

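The genes described here are 10 *Arabidopsis thaliana* genes that are used as markers of sugar starvation, and they were chosen by their locus identifiers among the 33602 genes with a value in each library. They are *ASN1* (AT3G47340, also called *DIN6*), *DIN10* (AT5G20250), *SEN1* (AT4G35770, also called *DIN1*), *DIN2* (AT3G60140), *BCAT2* (AT1G10070), *MGL* (AT1G64660), *TPS8* (AT1G70290), *TPS9* (AT1G23870), *TPS10* (AT1G60140) and *TPS11* (AT2G18700). RNA was sequenced from leaves and apical tissue of wild-type plants of the Col ecotype at about 2 weeks of age. Plants stayed in simulated sun, or were moved to simulated shade at ZT 4 (4 h after lights on). Both lights held added far-red light, and in shade the red to far-red ratio was lower at the same photosynthetically active radiation. The plants were harvested 1 h later (ZT 5) or 4 h later (ZT 8), so each shade group has a sun group of its own hour. All groups share the genotype and the removal of cotyledons, hypocotyls and roots, and no mutant or sugar treatment was part of the 8 libraries. Each of the 4 groups has 2 replicates, each a pool of 5 plants, and the *p* values measure the spread between such pools. Expression is given in CPM (reads on a gene scaled to library size).

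Plants that run short of sugar, as in prolonged darkness, switch on genes for breaking down and remobilising stored carbon and amino acids, and the SnRK1 kinase with C and S1 group bZIP factors drives much of this programme. Sugar supply represses the same genes, so their transcripts usually fall during the light period and rise at night or in darkness. The trehalose-6-phosphate synthase-like genes *TPS8* to *TPS11* belong to the class II branch of the family, whose transcripts also respond to the carbon status of leaves.

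In these libraries 1 h of shade raised the transcript of *MGL*, a methionine gamma-lyase, 4.25-fold, and no other of the 9 genes that could be tested passed the threshold in shade at 1 h or at 4 h. The change that reached *ASN1*, which encodes a glutamine-dependent asparagine synthetase, and *DIN10*, which encodes a member of the raffinose synthase family, lay between the harvest times in sun. Between ZT 5 and ZT 8 in sun *ASN1* fell 8.03-fold and *DIN10* fell 2.68-fold. *DIN10* also fell between the times in shade. *DIN2*, a beta-glucosidase gene, was all but undetected.

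The stretches of genome just upstream of the 3 genes that changed are shown because a promoter is where starvation factors of the bZIP class would bind, and because they can be set beside the values that follow. Each is the 300 bases before the start of the RefSeq gene model in the TAIR10.1 build, written 5′ to 3′ on the gene's own strand. Capitals mark the words CACGTG (the G-box), ACGT (the core that bZIP factors contact), ACTCAT (a core bound by S1 group bZIP factors), TTATCC (a sugar-repression element) and AAAATATCT (the evening element of clock-regulated genes), each searched on both strands. CACGTG holds ACGT, so a G-box counts under both.
*MGL* (chr1:24028530-24028829, plus strand): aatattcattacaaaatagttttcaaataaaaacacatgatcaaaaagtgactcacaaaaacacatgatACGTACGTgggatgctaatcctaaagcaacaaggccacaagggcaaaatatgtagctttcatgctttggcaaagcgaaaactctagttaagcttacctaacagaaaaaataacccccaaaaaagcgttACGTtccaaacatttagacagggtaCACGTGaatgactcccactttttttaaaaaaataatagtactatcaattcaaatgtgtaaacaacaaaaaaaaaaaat
*ASN1* (chr3:17441432-17441731, minus strand): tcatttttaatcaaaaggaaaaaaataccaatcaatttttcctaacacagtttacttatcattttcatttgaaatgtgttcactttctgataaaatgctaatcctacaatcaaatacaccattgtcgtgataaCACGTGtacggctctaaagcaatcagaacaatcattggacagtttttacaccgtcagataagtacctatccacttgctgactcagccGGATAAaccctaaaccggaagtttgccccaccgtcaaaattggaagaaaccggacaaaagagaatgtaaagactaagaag
*DIN10* (chr5:6833264-6833563, plus strand): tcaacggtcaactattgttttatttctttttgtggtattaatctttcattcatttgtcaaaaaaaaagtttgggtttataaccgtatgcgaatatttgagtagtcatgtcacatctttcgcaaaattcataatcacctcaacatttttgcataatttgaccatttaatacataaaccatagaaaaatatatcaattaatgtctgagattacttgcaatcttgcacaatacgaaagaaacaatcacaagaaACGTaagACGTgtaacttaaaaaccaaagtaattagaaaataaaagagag

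A G-box was found upstream of *MGL*, beginning 78 bases before the gene, and upstream of *ASN1*, beginning 167 bases before it. It was in none of the other 8 windows, and 7.09% of 27443 windows of the same length in the genome hold it. ACGT was in 7 of the 10 windows against 49% of all windows. TTATCC was in 3 of 10 (*ASN1*, *SEN1* and *TPS11*) against 14.7%. ACTCAT and AAAATATCT were in none of the 10, against 14.8% and 2.79% of all windows. These counts describe letters in a window and are no evidence of binding. The window of *ASN1* overlaps the gene AT3G47341 on the other strand, which had 0 reads in all 8 libraries. The window of *SEN1* overlaps the gene AT4G35760.

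The genes differ widely in level. Per kilobase of annotated exon, the median over the 8 libraries was highest for *DIN10* (22.6 CPM per kb), *TPS8* (16.6), *TPS11* (12.4) and *TPS9* (9.69). It was 5.60 CPM per kb for *MGL*, 4.78 for *TPS10* and 3.86 for *ASN1*. *SEN1* (1.76) and *BCAT2* (1.14) were low, and *DIN2* had a median of 0. A difference in a bulk sample can come from fewer cells that express a gene or from less RNA per cell, and these cannot be told apart here. The libraries held 3449191 to 4680620 reads on genes, except replicate 1 of shade at 4 h, which held 1154019. In that library 1 read is worth 0.856 CPM, against 0.216 to 0.291 CPM in the others, so its values for low genes carry the widest counting error. Its replicate rank correlation was also the lowest (Spearman 0.951 across genes, against 0.974 to 0.985 in the other groups). Its summed level of 7 jasmonate and wound genes was 2446 CPM, against 426 CPM in replicate 2. The sun pairs also differed in this sum, at 974 and 197 CPM at 1 h and at 551 and 1322 CPM at 4 h. In shade at 1 h the sums were 202 and 203 CPM. For most members the difference between shade and sun at 4 h is given below with and without replicate 1 of shade. The same was done for the calls of listed genes that use that library.

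Leaf identity was clear, with 4 of 4 mesophyll markers read in each library at 32992 to 44069 CPM in sum. Of 4 shoot meristem markers, 2 or 3 had a read (12.5 to 19.8 CPM in sum), and the 5 root markers, whose organ had been removed, summed to 169 to 316 CPM. That sum was almost wholly *PYK10* (169 to 314 CPM), a beta-glucosidase gene, while *EXPA7* and *IRT1* had 0 reads in all 8 libraries and *COBL9* and *CASP1* were at 0 to 1.71 CPM. The mesophyll marker *CA1*, a carbonic anhydrase gene, rose between the times in sun, from 1530 and 1387 CPM to 2605 and 2437 CPM (difference 0.79, adjusted *p* = 0.0231, limma). It was the 1 mesophyll marker called there. Of the 4, 2 had positive and 2 had negative differences, the lowest being -0.32, so the markers did not move together. The shade treatment was visible in a list of 7 known shade response genes. Of these, 5 rose at 1 h and 1 rose at 4 h, against 0.451% and 0.0934% of all tested genes called higher. The largest differences of the list at 1 h on the log2(CPM + 1) scale were those of the auxin-response repressor genes *IAA29* (4.42) and *IAA19* (3.33). Next came the auxin synthesis gene *YUC9* (3.24) and the homeobox gene *ATHB2* (2.83). *IAA29* was the gene called at 4 h (2.98, and 2.15 with an adjusted *p* of 0.00926 in limma without replicate 1 of shade). *IAA29* and *IAA19* fell between the times in shade, by 1.75 and by 2.13, and both were also called without that replicate.

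**Figure D1:**
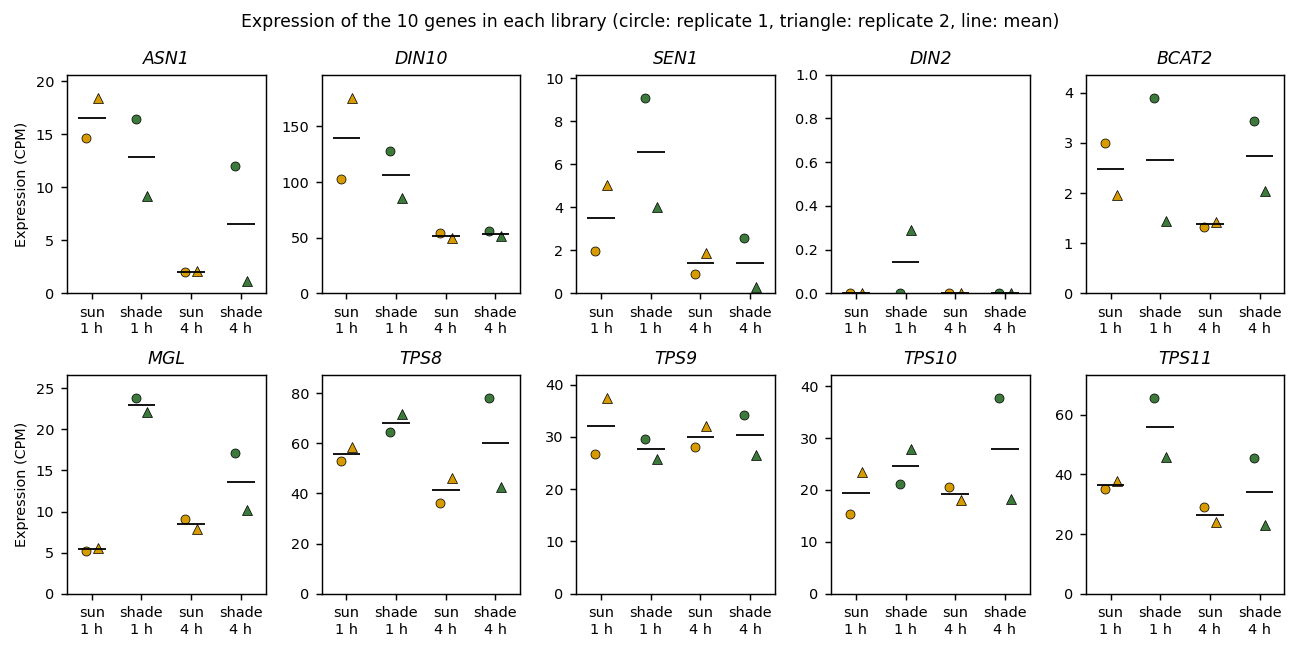
Expression (CPM, vertical axis, its own scale for each gene) of the 10 starvation marker genes in sun and shade libraries at 1 h and 4 h. Circles are replicate 1, triangles replicate 2 and lines the mean of the 2 replicates; *MGL* stands above both sun libraries in the shade libraries of 1 h (23.8 and 22.1 CPM), *ASN1* and *DIN10* are lower at 4 h than at 1 h in sun, and *DIN2* has a single read.

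The comparison of shade with sun after 1 h asks which of these genes responded to the lowered red to far-red ratio within the hour. *MGL* was at 5.23 and 5.58 CPM in the sun libraries (replicates 1 and 2) and at 23.8 and 22.1 CPM in the shade libraries. The groups were far apart and the replicates of each lay close together. The difference was 1.90 on the log2(CPM + 1) scale (SE 0.29, 95% interval 1.28 to 2.53, adjusted *p* = 0.00933 with limma), and it was 1 of 9 tested members called higher, with 0 called lower. Among all 19280 genes tested, 0.451% were called higher and 0.0207% lower at an adjusted *p* under 0.05. At a stricter threshold of 0.001, 0 of the 9 members passed in any comparison of this limma fit with all libraries. The methods of the study state that threshold for edgeR, so this count does not say which members passed in the study. *MGL* splits methionine into methanethiol, ammonia and a keto acid that feeds isoleucine synthesis. It also stands in the study's own list of genes that responded to shade at 1 h, which was drawn from these libraries, so its call is not independent of that choice.

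The call of *MGL* depended on having 2 libraries a group. Leaving out any of the 4 libraries of 1 h kept the difference between 1.85 and 1.95 but lost the call. With only those 4 libraries in the fit, the adjusted *p* of *MGL* was 0.000345 (limma). *MGL* overlaps the gene AT1G64670 on the opposite strand, and the sources used here do not say whether reads were counted by strand. AT1G64670 was read at 25.4 to 39.4 CPM over the 8 libraries, with a difference of 0.30 between shade and sun at 1 h (adjusted *p* = 0.825, limma). The change was thus called for *MGL* and not for its partner.

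The remaining members gave no call after 1 h of shade. *TPS11* was at 35.1 and 38.0 CPM in sun against 65.5 and 46.0 CPM in shade, and *TPS8* was at 52.8 and 58.6 CPM in sun against 64.7 and 71.6 CPM in shade. For both genes the shade libraries lay above the sun libraries. The difference of *TPS11* was 0.58 (SE 0.27, adjusted *p* = 0.753, limma) and that of *TPS8* was 0.29 (SE 0.24, adjusted *p* = 0.883, limma). Libraries of the groups did not overlap for 3 of the 9 tested members (*MGL*, *TPS8* and *TPS11*, all higher in shade), and this held for 19.5% of all tested genes in the higher and 18.5% in the lower direction. With 2 libraries against 2 an exact permutation test cannot go below *p* = 0.333, so separation alone carries little weight.

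*SEN1*, a gene induced by darkness and senescence, was read at 1.99 and 5.02 CPM in sun against 9.08 and 4.02 CPM in shade after 1 h. Replicate 2 of shade lay inside the range of the sun libraries, and the difference of 0.75 had an SE of 0.56. *TPS10* (15.4 and 23.4 CPM in sun, 21.2 and 27.9 CPM in shade) and *TPS9* (26.6 and 37.4 CPM in sun, 29.6 and 25.9 CPM in shade) overlapped between the groups, with differences of 0.34 and -0.18. *ASN1* was at 14.7 and 18.4 CPM in sun against 16.4 and 9.20 CPM in shade. *DIN10* was at 103 and 176 CPM in sun against 128 and 85.4 CPM in shade. The libraries of these genes, which darkness induces, thus overlapped between the lights at this hour. The differences were -0.39 (95% interval -1.69 to 0.91) for *ASN1* and -0.36 (95% interval -0.86 to 0.14) for *DIN10*. The upper ends leave room for a rise of *ASN1* but for little rise of *DIN10*.

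*BCAT2*, which encodes a branched-chain amino acid aminotransferase, was at 2.99 and 1.95 CPM in sun against 3.89 and 1.44 CPM in shade after 1 h, a difference of 0.01 (SE 0.45). It is a low gene whose transcripts share 7.49% of their 40-base windows with other genes, and AT1G10090 overlaps it on the opposite strand at 24.7 to 34.3 CPM. *DIN2* had 1 read, in replicate 2 of shade at 1 h (0.287 CPM), and 0 reads in the other 7 libraries. A count of 0 allows up to 3 reads, which is 0.649 to 0.872 CPM in 7 of the libraries and 2.57 CPM in replicate 1 of shade at 4 h. *DIN2* was not tested, and no difference was detectable at this depth. The median difference over the 9 tested members was 0.29, against -0.00 over all tested genes.

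After 4 h the same comparison gave 0 calls among the 9 tested members, and 0 of them reached even an unadjusted *p* of 0.05 with limma. The edgeR and DESeq2 tests on recovered reads also called 0. Of all tested genes, 0.0934% were called higher and 0.0259% lower, so few genes of any kind passed at this time. *MGL* was at 9.04 and 7.83 CPM in sun against 17.1 and 10.2 CPM in shade. The shade libraries were still above the sun libraries, and the difference was 0.60 (SE 0.29, 95% interval -0.03 to 1.22, adjusted *p* = 0.611, limma). Without replicate 1 of shade it was 0.25.

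*ASN1* showed how far the 2 shade libraries of 4 h lay apart. It was at 1.98 and 2.14 CPM in sun, and at 11.99 and 1.16 CPM in shade, which are 14 reads in replicate 1 and 4 reads in replicate 2. Replicate 1 of shade was above both sun libraries and replicate 2 below both. The difference was 0.79 (SE 0.60, adjusted *p* = 0.779, limma). Without replicate 1 it was -0.50, and without replicate 2 it was 2.09.

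In the 4 *TPS* genes, too, replicate 1 of shade lay above both sun libraries and replicate 2 did not. *TPS8* was at 36.2 and 46.3 CPM in sun against 77.9 and 42.4 CPM in shade, a difference of 0.48 (SE 0.24, adjusted *p* = 0.616, limma) that was 0.05 without replicate 1. *TPS10* was at 20.5 and 18.04 CPM in sun against 37.7 and 18.3 CPM in shade, and *TPS11* was at 29.1 and 24.0 CPM in sun against 45.4 and 23.0 CPM in shade. The differences of *TPS10* and *TPS11* were 0.43 and 0.28, and -0.07 and -0.19 without replicate 1. *TPS9* had the smallest gap, at 28.01 and 32.1 CPM in sun against 34.3 and 26.4 CPM in shade, a difference of 0.01. Without replicate 1 the median difference of the 9 members was -0.07, and without replicate 2 it was 0.90. With both it was 0.43, against -0.03 over all tested genes. Whether the jasmonate and wound transcripts or the low depth of replicate 1 played a part in these values was not tested.

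*DIN10* was level between the lights at 4 h, at 54.3 and 49.6 CPM in sun against 55.7 and 51.7 CPM in shade. Its difference was 0.05, with a 95% interval of -0.45 to 0.55. *BCAT2* was at 1.32 and 1.42 CPM in sun against 3.43 and 2.03 CPM in shade, which did not overlap, but these were 11 to 12 reads a group and the difference of 0.63 had an SE of 0.45 and was 0.35 without replicate 1 of shade. *SEN1* was at 0.882 and 1.90 CPM in sun against 2.57 and 0.291 CPM in shade, the latter being 3 reads and 1 read, so no fold is given. Its difference was -0.12, and -0.86 without replicate 1 of shade. Libraries did not overlap for 2 of 9 members (*BCAT2* and *MGL*, both higher in shade), against 16.9% of all tested genes higher and 20.9% lower.

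**Figure D2:**
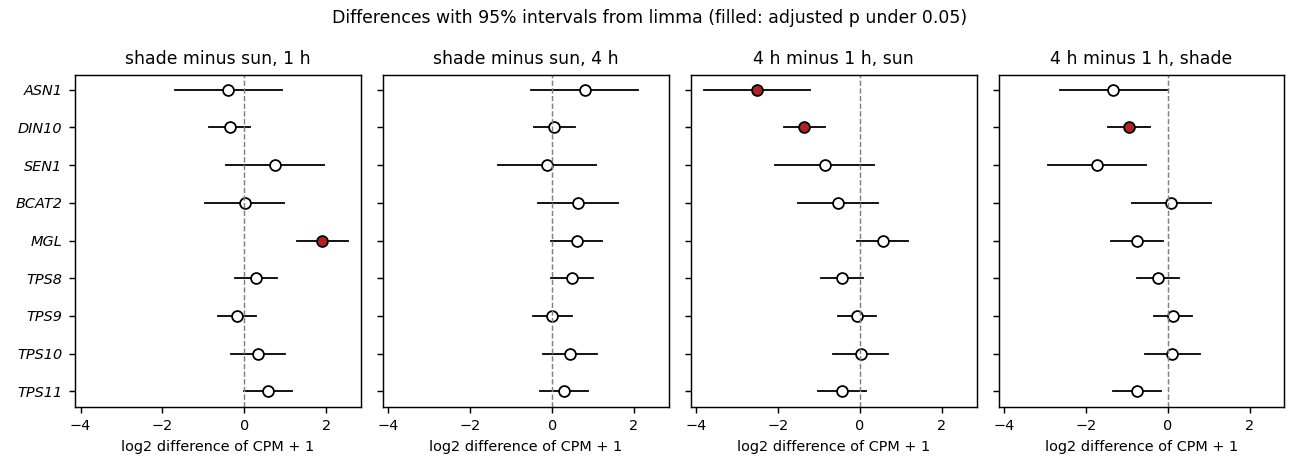
Differences on the log2(CPM + 1) scale (horizontal axis) with 95% intervals from limma for the 9 tested genes, in panels for shade minus sun at 1 h, shade minus sun at 4 h, 4 h minus 1 h in sun and 4 h minus 1 h in shade. Filled points passed an adjusted *p* of 0.05: *MGL* in shade at 1 h (1.90), *ASN1* (-2.51) and *DIN10* (-1.36) between the times in sun, and *DIN10* (-0.95) between the times in shade.

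The test of whether the shade response changed between 1 h and 4 h called 0 of 9 members, and 0.00519% of all tested genes were called in each direction (0.00519% higher, 0.00519% lower). *MGL* had the smallest *p* among the members, with a change in response of -1.31 (SE 0.41, unadjusted *p* = 0.00702, adjusted *p* = 0.806, limma; -1.66 without replicate 1 of shade at 4 h), and it was the sole member under an unadjusted *p* of 0.05. The call of *MGL* at 1 h and its absence at 4 h are therefore not shown to differ. For *ASN1* the change in response was 1.18 with all libraries, -0.11 without replicate 1 of shade at 4 h, and 2.47 without replicate 2. The edgeR and DESeq2 tests also called 0 members.

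The comparison of the harvest times in sun describes what the genes did between ZT 5 and ZT 8 without shade. It shares its libraries with the shade comparisons. *ASN1* was at 14.7 and 18.4 CPM at 1 h and at 1.98 and 2.14 CPM at 4 h, so the times did not overlap and the replicates of 4 h were almost equal. It fell by 2.51 on the log2(CPM + 1) scale (SE 0.60, adjusted *p* = 0.0376, limma). *DIN10* went from 103 and 176 CPM to 54.3 and 49.6 CPM and fell by 1.36 (SE 0.23, adjusted *p* = 0.0066, limma). These were 2 of 9 members called lower and 0 called higher, while 1.44% of all tested genes were lower and 2.15% higher.

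The call of *ASN1* was close to the threshold in the main fit and was lost in 8 of 18 other settings. Its adjusted *p* was 0.0531 with DESeq2, and 5.64e-05 with limma on only the sun libraries. The difference lay between -2.67 and -2.36 over the libraries left out. *DIN10* lost its call in 3 of 18 other settings, and without replicate 2 of sun at 1 h its difference was -0.98. *DIN10* overlaps AT5G20260 on the other strand, which was read at no more than 0.856 CPM.

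The other members of sun were lower or level at 4 h without passing the test. *SEN1* was at 1.99 and 5.02 CPM at 1 h and at 0.882 and 1.90 CPM at 4 h, a difference of -0.86 (SE 0.56). *BCAT2* (-0.53), *TPS8* (-0.43) and *TPS11* (-0.45) had lower values in both libraries of 4 h, and *TPS9* (-0.07) and *TPS10* (0.01) overlapped. *MGL* differed in direction, at 5.23 and 5.58 CPM at 1 h and at 9.04 and 7.83 CPM at 4 h, a difference of 0.56 (SE 0.29, adjusted *p* = 0.350, limma). Of the 9 members, 6 were lower at 4 h without overlap and 1 was higher, against 22.5% of all tested genes lower and 33.0% higher. The median over the members was -0.45, against 0.07 over all tested genes.

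Between the times in shade the members were again mostly lower at 4 h. Hours of shade and hours of the day cannot be told apart in this comparison. *DIN10* was at 128 and 85.4 CPM at 1 h and at 55.7 and 51.7 CPM at 4 h and fell by 0.95 (SE 0.23, adjusted *p* = 0.0410, limma), a 1.99-fold drop of the means. This call was lost in 7 of 18 other settings, with an adjusted *p* of up to 0.240 in limma (difference -0.66) without replicate 1 of shade at 1 h. It was 1 of 9 members called lower with 0 called higher, against 1.81% and 1.95% of all tested genes. *SEN1* went from 9.08 and 4.02 CPM to 2.57 and 0.291 CPM, a difference of -1.73 (SE 0.56, adjusted *p* = 0.0986, limma). *TPS11* went from 65.5 and 46.0 CPM to 45.4 and 23.0 CPM, a difference of -0.75 (adjusted *p* = 0.137, limma), and *MGL* from 23.8 and 22.1 CPM to 17.1 and 10.2 CPM, also -0.75 (adjusted *p* = 0.159, limma; -1.10 without replicate 1 of 4 h). In these 4 genes the libraries of 4 h lay below those of 1 h, against 20.7% of all tested genes lower and 25.3% higher.

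*ASN1* overlapped between the times in shade (16.4 and 9.20 CPM, then 11.99 and 1.16 CPM), with a difference of -1.33 (adjusted *p* = 0.227, limma). Without replicate 1 of shade at 4 h the difference was -2.62 for *ASN1*, -2.46 for *SEN1*, -1.22 for *TPS11* and -1.001 for *DIN10*. *TPS8* (-0.24), *TPS9* (0.12), *TPS10* (0.11) and *BCAT2* (0.09) overlapped. The median over the members was -0.75, against 0.03 over all tested genes. Summed over the 10 genes, the level was 258 and 364 CPM in sun, with 362 and 294 CPM in shade at 1 h, which overlapped. *DIN10* makes up much of that sum, and without it the sums were 155 and 188 CPM in sun against 234 and 208 CPM in shade at 1 h. These did not overlap, but only once *DIN10*, itself lower in mean in shade, was left out. The remaining sum includes *MGL*, called above, while *ASN1* and *TPS9* had lower means in shade. Of all tested genes taken singly, 19.5% lay higher in shade at 1 h without overlap. At 4 h the sums without *DIN10* were 127 and 134 CPM in sun against 230 and 124 CPM in shade, and with it 181 and 183 CPM against 286 and 176 CPM.

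Other genes of the starvation programme were set beside the members as fixed lists. Of 18 further starvation and dark-induced genes, 0 were called in shade at 1 h or at 4 h, and their median differences were 0.03 and 0.07. Between the times 1 rose and 1 fell in each light. Of all tested genes, 2.15% were called higher and 1.44% lower in sun, and 1.95% higher and 1.81% lower in shade. The gene that fell was AT3G15450, annotated as an aluminum induced protein with YGL and LRDR motifs, which was at 229 and 359 CPM in sun at 1 h and at 74.8 and 68.4 CPM in sun at 4 h (difference -1.99, SE 0.25, adjusted *p* = 0.000948, limma). In shade it went from 398 and 214 CPM to 89.1 and 80.2 CPM (difference -1.78, adjusted *p* = 0.00181, limma). Its level fell between the times in both lights and was not called between the lights, as for *DIN10*.

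The gene that rose was *BT2*, which encodes a BTB and TAZ domain protein. It went from 4.98 and 13.4 CPM to 42.6 and 44.2 CPM in sun (difference 2.26, adjusted *p* = 0.00592, limma) and from 6.71 and 5.46 CPM to 56.5 and 28.2 CPM in shade (difference 2.54, adjusted *p* = 0.00247, limma). Without replicate 1 of shade at 4 h, AT3G15450 (-1.85) and *BT2* (2.05) were still called between the times in shade. *DIN11*, which gave the largest difference of the list in shade at 4 h without a call, was at 42.8 CPM in replicate 1 of shade at 4 h and at 1.74 CPM in replicate 2, and between 0.441 and 2.49 CPM elsewhere. It fell outside the rule for naming and was singled out after its values were seen, since it is a further gene that set that library apart.

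Of the regulators, 0 of 7 SnRK1 subunit genes were called in any comparison, and their differences lay between -0.22 and 0.42 in shade at 1 h and between -0.55 and 0.17 at 4 h. Among 9 C and S1 group bZIP genes, 0 were called by shade at either time. *bZIP63*, a C group factor and a substrate of SnRK1, fell between the times in shade, from 32.4 and 33.9 CPM to 17.98 and 9.59 CPM (difference -1.27, adjusted *p* = 0.0199, limma; -1.69 and called without replicate 1 of 4 h). In sun it went from 27.6 and 34.9 CPM to 20.3 and 16.6 CPM, a difference of -0.73 that did not pass (adjusted *p* = 0.165, limma).

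Among 18 other trehalose genes, 14 were tested and 0 were called by shade at either time. Their differences at 1 h lay between -0.48 and 0.60, with a median of 0.14. Those of *TPS8* (0.29), *TPS9* (-0.18), *TPS10* (0.34) and *TPS11* (0.58) lay within that range. *TPS5*, a further class II gene, rose between the times in shade, from 19.7 and 19.3 CPM to 40.2 and 34.9 CPM (difference 0.91, adjusted *p* = 0.0270, limma; difference 0.81 and adjusted *p* = 0.0914 without replicate 1 of 4 h), where *TPS11* was lower at 4 h. In sun *TPS5* was at 27.9 and 21.5 CPM, then at 33.5 and 28.3 CPM, a difference of 0.32. Of 15 relatives of the other members, which are asparagine synthetase, branched-chain aminotransferase, raffinose synthase and beta-glucosidase genes, 11 were tested and 0 were called by shade. *BCAT3* fell between the times in shade, by 0.56 (adjusted *p* = 0.0451, limma; adjusted *p* = 0.124 without replicate 1 of 4 h). *ASN2*, the relative of *ASN1* that light induces, was at 60.8 to 80.2 CPM over the 8 libraries, with a difference of -0.21 between the times in sun where *ASN1* fell by 2.51. The other relative, *ASN3*, went from a mean of 42.0 to 33.5 CPM between those times. Of the tested relatives, 0 were called there.

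**Figure D3:**
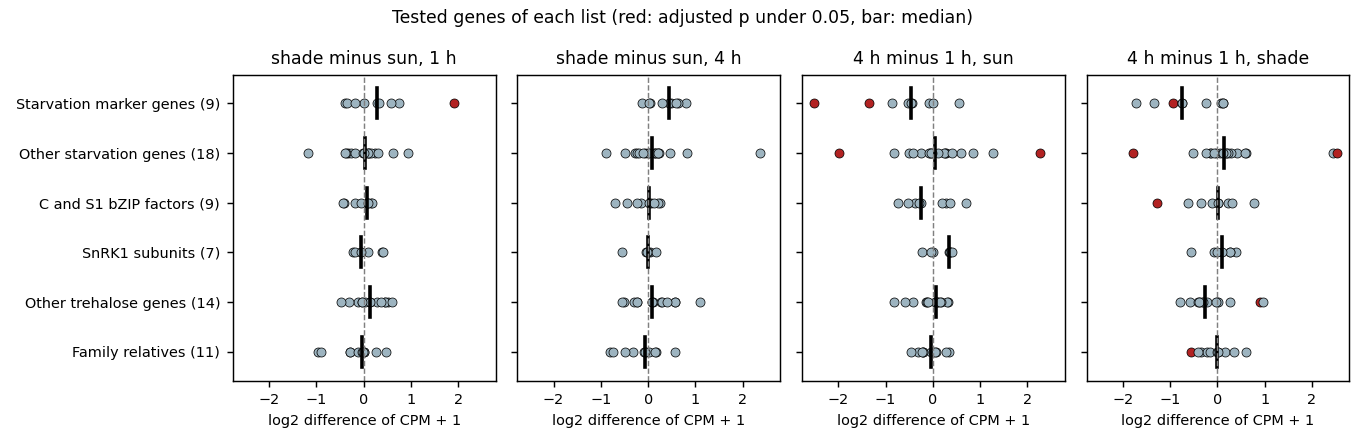
Differences on the log2(CPM + 1) scale (horizontal axis) of each tested gene in the member list and in 5 related lists, in the same 4 comparisons. Points are genes, red points passed an adjusted *p* of 0.05 with limma and bars are list medians; in shade at 1 h the single red point is *MGL* (1.90), and in shade at 4 h no point is red.

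The genes whose pattern over the 8 libraries lay closest were sought for the 5 members whose group means spanned more than 1 on the log2(CPM + 1) scale, by the root mean square difference of centred values. For *MGL* the closest were AT4G25260 (0.22), AT5G66080 (0.23) and *DGR2* (0.24). AT4G25260 was at 21.9 and 25.7 CPM in sun against 110 and 110 CPM in shade at 1 h, and at 30.9 and 29.7 CPM in sun, with 76.2 and 56.1 CPM in shade at 4 h. For *ASN1* the closest were AT3G21670 (0.44), *BETA-OHASE 2* (0.54) and AT5G19120 (0.54). AT3G21670, a member of the nitrate and peptide transporter family, was at 22.9 and 24.0 CPM in sun against 24.2 and 29.6 CPM in shade at 1 h, and at 1.98 and 3.32 CPM in sun, with 13.7 and 2.03 CPM in shade at 4 h. It thus had the high value in replicate 1 of shade at 4 h that *ASN1* had. For *DIN10* they were AT1G71866 (0.19), *ATCTH* (0.24) and *TIM13* (0.25), for *SEN1* *BETA-VPE* (0.41), AT3G20365 (0.44) and *GA20OX1* (0.46), and for *TPS11* *ABS2* (0.14), AT2G14900 (0.19) and AT2G20720 (0.20). Closeness was measured on the same libraries and is a description.

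The genes lie at chr3:17437840-17441431 (*ASN1*, minus strand), chr5:6833564-6836862 (*DIN10*, plus), chr4:16944878-16946266 (*SEN1*, plus), chr3:22216540-22220824 (*DIN2*, plus), chr1:3288087-3290471 (*BCAT2*, plus) and chr1:24028830-24030780 (*MGL*, plus) in TAIR10.1. The *TPS* genes lie at chr1:26470795-26474833 (*TPS8*, minus), chr1:8432179-8435656 (*TPS9*, plus), chr1:22176934-22181740 (*TPS10*, minus) and chr2:8108898-8112010 (*TPS11*, plus). None of the 4 *TPS* genes shares an exact 40-base window, the read length used, between its longest transcript and the transcripts of another gene. Matches with mismatches were not searched, so this does not settle whether all their reads were told apart.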

How the data were processed

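RNA was sequenced as 40 bp single-end reads from 8 libraries of leaves and apical tissue. Per the labels, the authors mapped reads with TopHat to TAIR10 and used edgeR, and they deposited CPM for each gene. Versions, the counting program, strand use and the treatment of reads with several matches are not given in the sources used here. All value columns were used (unused columns: 0), and groups and replicate numbers follow the sample titles. All 10 members are in the table; 9 passed the filter.

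Of 33602 genes, 19280 reached 1 CPM in 2 or more libraries and were tested. log2(CPM + 1) was fitted with limma 3.58.1 in R 4.3.3, with 4 groups, a mean-variance trend, 4 residual degrees of freedom (9.33 prior), and *p* values were adjusted by Benjamini-Hochberg over all tested genes of a contrast. A call is an adjusted *p* under 0.05. Fold changes are ratios of mean CPM, and log2 differences understate changes of low genes. The limma step was tested on simulated data.

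Each value was a whole multiple of the worth of 1 read (100% within a tolerance of 0.01 reads), so reads were recovered and tested with edgeR 4.0.16 and DESeq2 1.42.0. A gene at 10 CPM has a coefficient of variation from counting of 14.7% to 17.0% in 7 libraries, and of 29.3% in the library with 1154019 reads. Intervals and the 3-read limit on a count of 0 cover counting error only. Positions and upstream sequences come from RefSeq models on TAIR10.1, matched by locus identifier (32835 of 33602, all 10 members). Python 3.11.15, pandas 2.3.3 and matplotlib 3.10.9 were used.

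Members, lists and motifs were chosen with earlier results of these data known. All members are named. Listed genes are named where called (at most 4 a list and contrast), and the 3 closest profiles are named for members spanning over 1. *DIN11*, *ASN2*, *ASN3* and the root markers are named outside this rule. Alternatives were other pseudocounts (0.25, 5), filters (none, 5 CPM), scalings, sample sets, thresholds, tests, a replicate block and leaving out each library.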

Additional observations from a re-analysis of the deposited data

How the results depend on the processing

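Limits were set by 2 libraries a group and by few reads for *ASN1*, *SEN1*, *BCAT2* and *DIN2*. The number of members called moved as follows. With no filter it was 0 for shade at 1 h, 1 between the times in sun and 0 between the times in shade. The threshold of 0.001 gave 0 for shade at 1 h, 0 between the times in sun and 0 in shade. With only the libraries compared it was 0 between the times in shade, where *DIN10* had an adjusted *p* of 0.0603 with limma, and DESeq2 gave 1 between the times in sun. With no filter more genes entered the adjustment, and the adjusted *p* values with limma were 0.0615 (*MGL*, shade at 1 h), 0.129 (*ASN1*, sun) and 0.105 (*DIN10*, shade). Leaving out each library in turn, the counts ranged from 0 to 1 for shade at 1 h, 0 to 2 for shade at 4 h, 0 to 2 between the times in sun, 0 to 3 between the times in shade, and 0 to 1 for the change in shade response. The cause of these moves was not tested. Pseudocounts, the minimum of 5 CPM, quantile and median-ratio scaling and edgeR kept the count within 1.5 times in each of the 5 comparisons.

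Signs turned for small differences. *BCAT2* in shade at 1 h was -0.015 with a pseudocount of 0.25. *TPS10* between the times in sun was -0.049 (quantile), -0.055 (median-ratio), -0.081 (edgeR) and -0.081 (DESeq2). With edgeR *TPS9* in shade at 4 h was -0.030 and *TPS10* between the times in shade was -0.016, and *BCAT2* between the times in shade was -0.21 with edgeR and -0.11 with DESeq2. With each library left out in turn, shade at 1 h ranged from -0.74 to 0.020 (*DIN10*), -0.49 to 0.51 (*BCAT2*) and -0.42 to 0.053 (*TPS9*). Shade at 4 h ranged from -0.50 to 2.09 (*ASN1*), -0.015 to 0.11 (*DIN10*), -0.86 to 0.61 (*SEN1*), -0.17 to 0.19 (*TPS9*), -0.068 to 0.93 (*TPS10*) and -0.19 to 0.76 (*TPS11*). The times in sun ranged from -0.31 to 0.16 (*TPS9*) and -0.27 to 0.30 (*TPS10*), and the times in shade from -0.42 to 0.59 (*BCAT2*), -0.67 to 0.19 (*TPS8*), -0.064 to 0.30 (*TPS9*) and -0.39 to 0.61 (*TPS10*). The change in shade response ranged from -0.11 to 2.47 (*ASN1*), -0.23 to 0.63 (*TPS8*), -0.047 to 0.43 (*TPS9*), -0.40 to 0.60 (*TPS10*) and -0.77 to 0.18 (*TPS11*).

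Over all genes, 91, 23, 691 and 724 were called in shade at 1 h, in shade at 4 h and between the times in sun and in shade, and 2 in the change of response. Other settings gave 35 to 194, 1 to 49, 312 to 2548, 234 to 872 and 1 to 15, and leaving out a library gave 15 to 199, 1 to 975, 87 to 1781, 161 to 3510 and 0 to 224. The share of calls that were higher moved from 59.9% to 43.1% in sun and from 51.8% to 40.7% in shade with edgeR. A replicate block gave the same counts of members (1, 0, 2, 1 and 0) and 101, 30, 770, 872 and 1 over all genes. Residuals of same-numbered libraries correlated at -0.0632 to 0.103, so the numbers were not taken as pairs.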

Other observations

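Genes that sugar induces were listed beside the starvation genes. Of 7 such genes, 0 were called in shade at 1 h and 1 was called lower in shade at 4 h, against 0.0259% of all tested genes. The median differences were -0.38 and -0.95 on the log2(CPM + 1) scale, against -0.00 and -0.03 over all tested genes. At 4 h 5 of the 7 had negative and 2 had positive differences, from -1.96 to 1.25, so the list did not move together. The gene called lower was *CHS*, chalcone synthase of flavonoid synthesis, at 122 and 150 CPM in sun and at 59.1 and 67.7 CPM in shade at 4 h (difference -1.08, SE 0.18, adjusted *p* = 0.0384, limma). Without replicate 1 of shade, the library of lowest depth, the difference was -0.99 and the adjusted *p* was 0.0563. At 1 h it was at 135 and 97.7 CPM in sun and at 84.4 and 92.0 CPM in shade, a difference of -0.38 that did not pass.

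Of 7 leaf senescence genes, 4 were tested and 0 were called by shade. *SAG13*, a senescence-associated dehydrogenase gene, rose between the times in shade (difference 3.33, adjusted *p* = 0.0163, limma), at 0.216 and 0.575 CPM at 1 h, which are 1 read and 2 reads, and at 31.7 and 4.94 CPM at 4 h. The high value is that of replicate 1, and without it the difference was 2.10 (adjusted *p* = 0.0751, limma), so the call rests on that library. Of 7 jasmonate and wound genes, 6 were tested, 0 were called by shade, and *LOX2*, a lipoxygenase of jasmonate synthesis, rose between the times in shade (difference 2.25, adjusted *p* = 0.0387, limma), from 147 and 163 CPM to 1494 and 369 CPM. Without replicate 1 of 4 h, where it stood highest, the difference was 1.25 and the adjusted *p* was 0.168.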
